A study of Mus musculus with 29 samples.

Results

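Wild-type mouse ovary was compared between postnatal day 8 (PND8) and 12 weeks of age (12wk), across all genes. The members were the 4 wild-type 12wk libraries and the 4 wild-type PND8 libraries, chosen by genotype and age from the sample labels, 8 of the 29 libraries of the series. The whole series holds ovaries of wild-type and Cdkn1b-null mice on days 13.5 and 18.5 of embryonic life (E13.5 and E18.5), at PND8 and at 12wk, and was made to ask what part cell cycle control plays as the ovary develops. Wild type is given as Cdkn1b +/+, and no other allele and no treatment is given. Every ovary was dissociated with papain, and total RNA of the resulting cells, purified on small columns, was sequenced, so each library is a mixture of all ovarian cell types that came through dissociation. The strain, the number of animals behind a library and the stage of the oestrous cycle at 12wk are not given in the sources used here. Nothing states that replicates are separate animals, so the p-values measure the spread between these libraries, which may be in part technical.

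The ovary of a mouse at PND8 is prepubertal. It holds a large reserve of primordial follicles, each an arrested oocyte wrapped in flat granulosa cells, and the earliest cohorts of growing follicles, but no follicle has ovulated. By 12wk the mouse is cycling: large antral follicles mature under pituitary hormones, release their oocytes, and turn into corpora lutea, steroid-secreting glands made of luteinised granulosa and theca cells. Corpora lutea and dying follicles draw in blood vessels and immune cells, and most of the mass of the adult ovary is somatic.

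Total counts per library ran from 31529170 to 35005084 at 12wk and from 32281467 to 41877854 at PND8, and 3 counts in a library, taken as the smallest readable level, correspond to 0.0716 to 0.0952 CPM. That floor covers counting error only. CPM are counts relative to a library size scaled by the TMM method and brought to the same total of 1000000 counts, and levels are listed in the order of replicates 1, 2, 3 and 4. The share of mitochondrial counts was 1.35% ± 0.493 at PND8 and 2.12% ± 0.281 at 12wk (SD, n = 4 each), and it did not pass a two-sided exact permutation test (p = 0.0571, 0.229 after Benjamini-Hochberg adjustment over 4 library measures, where the smallest p the design allows is 0.0286). All 12 pairs of replicates differed by more than sampling noise, with Spearman's rho over genes of 0.986 to 0.991 within PND8 and 0.969 to 0.985 within 12wk. The 3 pairs with 12wk replicate 2 reached 0.969 to 0.980. Granulosa markers were high in every library (4 defining genes summed to 2215 to 2736 CPM at PND8 and 2619 to 4269 CPM at 12wk), and oocyte markers were present at both ages, so the labelled tissue was matched by its markers. The adrenal cortex genes Cyp11b1, Cyp21a1 and Mc2r, read as a check on neighbouring tissue, summed to less than 2 CPM in every library, and Cyp11b1 was at 0 at PND8.

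Of 17293 genes tested, 2790 were higher and 2481 were lower at 12wk at an adjusted p under 0.05 (edgeR quasi-likelihood test, Benjamini-Hochberg adjustment over all genes tested, called edgeR adjusted p below). These are 16.1% and 14.3% of the genes tested, or 30.5% together, and the 4 libraries of 1 age lay wholly above the 4 of the other for 33.3%. The shares are the background for each gene list below, and a count near them is not read as a result about the list. The median log2 fold change over all genes was -0.01, with the middle 50% between -0.30 and 0.32. Changes of at least 1 on the log2 scale were found in 1449 higher and 862 lower genes, so the larger shifts were more often upward. Of all calls, 52.9% were higher, and 41.7% when the fit held all 8 groups of the series. Since each value is a share of a library, a fall can reflect fewer cells of a type or less RNA per cell, and bulk samples cannot tell these apart. The same holds for each rise.

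The 10 genes with the largest rises all stood at 5.38 CPM or less in every PND8 library. Plin4, a perilipin that coats lipid droplets, stood at 1.25, 0.391, 0.870 and 0.569 CPM at PND8 and 119, 829, 27.3 and 80.9 CPM at 12wk (log2 fold change 8.45 ± 1.28, edgeR adjusted p = 0.0019). Replicate 2 was highest and replicate 3 lowest at 12wk, and the ages did not overlap. Wnt10b, a secreted Wnt ligand, went from 0–0.169 to 5.28–56.8 CPM (log2 fold change 8.10 ± 0.95, edgeR adjusted p = 0.00063). Tnfrsf9, a receptor of activated lymphocytes, went from 0–0.0494 to 2.04–17.2 CPM (log2 fold change 7.62 ± 1.02, edgeR adjusted p = 0.001). Ccn5, a matricellular protein, went from 0.148–0.195 to 8.07–58.7 CPM (log2 fold change 7.34 ± 0.71, edgeR adjusted p = 0.00025), and Onecut2, a homeobox transcription factor, from 0.0313–0.145 to 8.34–27.5 CPM (log2 fold change 7.18 ± 0.53, edgeR adjusted p = 7.7e-05). Grem1, a secreted BMP antagonist, was called as well, but its 12wk level spread from 1.20–50.8 CPM (log2 fold change 6.98 ± 1.39, edgeR adjusted p = 0.0061). The other genes that met the rule for the largest rises were Sfrp4, Gpr141, Mmel1 and Ptgfr.

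The 10 largest falls held germ cell genes beside others. Mov10l1, a helicase of the piRNA pathway that guards the germ line against transposons, stood at 8.14, 3.20, 1.04 and 8.33 CPM at PND8 and was left with 1 count over the 4 libraries at 12wk, against 771 at PND8. The ratio of counts was 672 (95% exact interval from counting error alone 120.3 to 26593, edgeR adjusted p = 0.00065). Mael, Gtsf1 and Dppa3, further germ cell genes, met the same rule, as did Trim71, a stem cell ubiquitin ligase. Adra1a, an adrenergic receptor, fell from 4.51–6.21 to 0.123–0.210 CPM (log2 fold change -4.88 ± 0.26, edgeR adjusted p = 4.7e-05). Trpm5, a calcium-activated cation channel, fell from 7.54–11.0 to 0.184–0.510 CPM (log2 fold change -4.65 ± 0.31, edgeR adjusted p = 6.3e-05). Tmem132c, Rtl3 and Ap3b2 completed the set. Adra1a, Trpm5 and Rtl3 varied less between replicates than Mael did, with standard errors of the log2 fold change of 0.265, 0.312 and 0.373 against 1.04 for Mael.

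**Figure D1:**
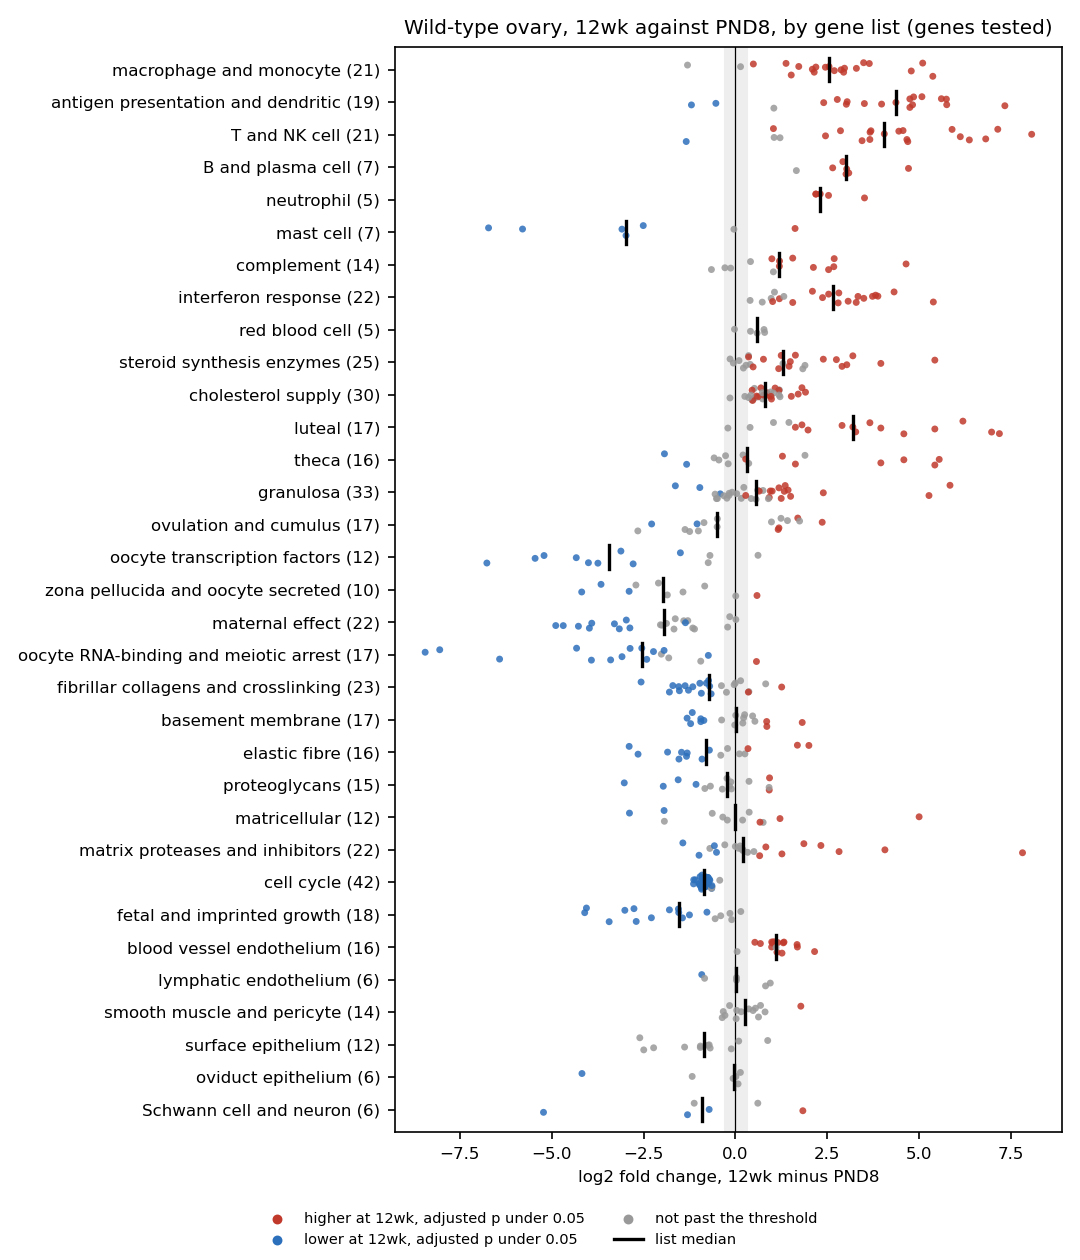
Each point is the log2 fold change (12wk minus PND8, horizontal axis) of 1 tested gene, in rows by gene list, with the number tested in brackets; red and blue points passed an adjusted p under 0.05, black bars are list medians, and the grey band holds the middle 50% of all tested genes (-0.30 to 0.32). The immune lists other than mast cells, and the luteal list, sit to the right, with medians from 1.20 to 4.37, and oocyte lists to the left, with medians from -3.43 to -1.94.

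Genes of MHC class II antigen presentation were higher at 12wk, the classical chains and Cd74 from a few CPM at PND8 and H2-Oa, H2-Ob and H2-DMb2 from levels near the floor. MHC class II molecules are pairs of alpha and beta chains that present peptides to helper T cells. They are loaded with the help of the invariant chain Cd74 and the H2-DM and H2-O proteins, and switched on together by the co-activator Ciita. Their promoters carry a shared module, an X box followed by a Y box, where the Y box is an inverted CCAAT. The 150 bases before the annotated start of 6 of these genes are shown because the genes rose together. They are from RefSeq on GRCm38.p6, 5′ to 3′ on the gene's strand, with capitals for the letters AACNGATG, which end the X box of classical class II promoters, and for CCAAT, both searched on both strands.
H2-Aa, chr17:34287824-34287973, minus strand: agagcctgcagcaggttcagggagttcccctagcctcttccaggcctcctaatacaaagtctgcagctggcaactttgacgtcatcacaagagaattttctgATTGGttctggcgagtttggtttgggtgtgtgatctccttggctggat
H2-Eb1, chr17:34305717-34305866, plus strand: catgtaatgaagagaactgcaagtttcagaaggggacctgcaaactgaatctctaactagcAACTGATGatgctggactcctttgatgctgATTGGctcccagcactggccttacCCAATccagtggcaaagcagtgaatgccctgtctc
H2-DMb1, chr17:34153041-34153190, plus strand: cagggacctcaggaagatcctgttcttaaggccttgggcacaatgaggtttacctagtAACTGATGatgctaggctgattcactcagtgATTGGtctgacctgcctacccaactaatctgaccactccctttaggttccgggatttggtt
H2-DMb2, chr17:34145099-34145248, plus strand: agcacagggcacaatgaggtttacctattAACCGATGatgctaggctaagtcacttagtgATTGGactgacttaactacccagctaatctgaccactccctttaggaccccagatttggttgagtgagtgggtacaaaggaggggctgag
H2-Oa, chr17:34092229-34092378, plus strand: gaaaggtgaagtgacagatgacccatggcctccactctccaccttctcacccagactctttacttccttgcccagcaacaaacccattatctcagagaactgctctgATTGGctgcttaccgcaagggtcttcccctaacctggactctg
H2-Ob, chr17:34238755-34238904, plus strand: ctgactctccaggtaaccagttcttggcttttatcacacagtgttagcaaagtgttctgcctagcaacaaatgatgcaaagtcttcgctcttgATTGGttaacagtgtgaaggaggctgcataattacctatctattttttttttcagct
These are the genes with a match among the 7 class II genes that have an entry, and the windows of the seventh, H2-DMa, hold neither motif. CCAAT was present in 6 of these 7 genes, the printed ones, and in 24.5% of the 32851 RefSeq promoter windows of that length. AACNGATG was present in 3, H2-Eb1, H2-DMb1 and H2-DMb2, and in 1.14% of all windows, and both were present together in 0.253%. The 2 motifs do not overlap in these windows. A match is a description of letters and not a bound site, and a window without one says only that these letters are absent from it.

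Of 19 antigen presentation genes tested, 16 rose, 2 fell and 1 did not pass, with a median log2 fold change of 4.37. H2-Aa, a class II alpha chain (chromosome 17, 34282744 to 34287823, minus strand, GRCm38), stood at 2.07, 1.27, 2.27 and 1.36 CPM at PND8 and 84.4, 149, 81.0 and 57.4 CPM at 12wk, a 53.5-fold rise (log2 fold change 5.74 ± 0.36, edgeR adjusted p = 5.4e-05). Every 12wk library was above every PND8 library, and 12wk replicate 2 was the highest. H2-Ab1 and H2-Eb1, the beta chains, rose to 50.8–155 and 51.1–141 CPM from 2.73–4.04 and 2.37–4.71 CPM, with log2 fold changes of 4.82 ± 0.36 and 4.75 ± 0.37. Cd74 read 4.23, 4.22, 3.67 and 6.72 CPM and then 219, 352.1, 208 and 140.0 CPM (log2 fold change 5.61 ± 0.34, edgeR adjusted p = 5.2e-05). Ciita itself rose by a smaller fold, from 0.586–1.498 to 4.72–12.4 CPM (log2 fold change 3.02 ± 0.43, edgeR adjusted p = 0.0013), with replicate 2 again the highest.

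H2-DMa, H2-DMb1, H2-DMb2, H2-Oa and H2-Ob, the loading helpers, rose by 2.77 ± 0.37, 3.04 ± 0.35, 5.08 ± 0.67, 3.51 ± 0.53 and 4.37 ± 0.49 on the log2 scale. Class II genes are related in sequence, and H2-DMb1 and H2-DMb2 are the closest pair named here. RSEM's division of reads between similar members is a source of error for single genes. Some dendritic cell markers rose too. Cd209a was at 1 count over the 4 PND8 libraries and at 1.46–1.80 CPM at 12wk, a ratio of 247 (95% exact interval 43.8 to 9782). Xcr1, which marks cross-presenting dendritic cells, went from 0–0.0494 to 0.900–1.37 CPM (log2 fold change 4.75 ± 0.50, edgeR adjusted p = 0.00033). Flt3, their growth factor receptor, went from 0–0.0725 to 1.37–1.77 CPM (log2 fold change 5.75 ± 0.65, edgeR adjusted p = 0.00046). Zbtb46 and Batf3, 2 dendritic transcription factors on the list, fell instead (log2 fold changes -0.53 ± 0.16 and -1.20 ± 0.28). Zbtb46 stood at 65.9–84.4 CPM at PND8, when Flt3 and Xcr1 were near 0. The 5 defining dendritic markers, Flt3, Xcr1, Clec9a, Cd209a and Zbtb46, summed to less at 12wk. Their sum was 67.6 to 85.5 CPM at PND8, most of it Zbtb46, and 42.8 to 63.0 CPM at 12wk. Of the 19 genes, 6 were below the level of the low-count filter (0.289 CPM) in every library of 1 age and entered the test through the age at which they were high.

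Macrophage genes rose in 19 of the 21 members tested, with none lower (median 2.55). Of the 21, 2 were below the filter level in every library of 1 age and entered the test through the other. Csf1r, the receptor for the macrophage growth factor, stood at 11.2, 14.7, 11.5 and 16.6 CPM at PND8 and 44.9, 48.5, 41.6 and 43.4 CPM at 12wk (log2 fold change 1.72 ± 0.14, edgeR adjusted p = 8.3e-05). C1qa, a chain of the complement trigger C1q that macrophages secrete, stood at 3.69, 4.47, 3.72 and 6.55 and 24.8, 37.5, 28.8 and 28.2 CPM (log2 fold change 2.69 ± 0.22, edgeR adjusted p = 9.0e-05). Both sets of 4 were compact and well apart. Adgre1, which encodes F4/80, rose 4.27-fold (log2 fold change 2.09 ± 0.31, edgeR adjusted p = 0.0016), and Cd68, a lysosomal protein of phagocytes, 7.82-fold (log2 fold change 2.97 ± 0.20, edgeR adjusted p = 6.3e-05). The largest rises were in Ly6c2 and Ccr2, markers of monocytes newly come from blood, at 5.37 ± 0.70 and 4.79 ± 0.35, and in Gpnmb, a marker of lipid-laden macrophages, at 5.10 ± 0.52. Mrc1 and Lyve1, which mark tissue-resident macrophages, were the 2 tested members that did not pass. Mrc1 was 9.91–19.7 CPM at PND8 and 10.3–18.2 CPM at 12wk (log2 fold change 0.14 ± 0.24, edgeR adjusted p = 0.71). Lyve1, also a lymphatic gene, was 2.05–7.33 and then 0.639–2.88 CPM (log2 fold change -1.31 ± 0.52, edgeR adjusted p = 0.087). Ly6c2 and Ccr2 were at 0.532 CPM or less in every PND8 library, where Mrc1 was at 9.91–19.7 CPM. Other genes used as resident markers were not alike. Per kilobase of exon, mean Folr2 went from 0.264 to 0.690 CPM and Cd163 from 0.0296 to 0.131 CPM. Timd4 went from 0.0338 to 0.0364 CPM on that scale. Mrc1 and Lyve1 therefore do not stand for resident macrophages as a group.

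The defining markers of T and NK cells were close to the floor at PND8, although the whole list, which holds genes that other cells share, summed to 13.7 to 18.9 CPM there. The 5 markers Cd3e, Cd3g, Cd3d, Cd8a and Nkg7 summed to 0.0244 to 0.470 CPM at PND8 and 4.78 to 10.8 CPM at 12wk. Of 21 genes tested, 18 rose and 1 fell (median 4.05, or 3.69 with Cd8a at its bound), and 14 were below the filter level in every library of 1 age. Cd8a, the co-receptor of cytotoxic T cells, had no count at PND8 and 124 counts at 12wk (0.747, 0.609, 1.65 and 0.674 CPM), at least 11.7-fold higher against the floor of 3 counts per library (edgeR adjusted p = 0.0017). Gzma, a cytotoxic granule protease, had 3 and 435 counts, a ratio of 166 (95% exact interval 56.5 to 809, edgeR adjusted p = 0.00044). Nkg7, a granule membrane protein, had 3 and 259 counts (edgeR adjusted p = 0.00069), and Gzmb had 2 and 245. Cd3e and Cd3g, chains of the T cell receptor complex, rose by 4.69 ± 0.70 and 4.67 ± 0.90, with 12wk replicate 3 highest in both. Trac, the constant segment of the T cell receptor alpha chain, was the member that fell. It stood at 4.08–8.02 CPM at PND8, when Cd3e was at 0–0.124 CPM, and at 1.49–3.57 CPM at 12wk (log2 fold change -1.34 ± 0.35, edgeR adjusted p = 0.019).

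B cell genes rose in 6 of 7 members tested (median 3.01), of which 2 were below the filter level in every library of 1 age. Cd79a, a chain of the B cell receptor, rose from 0.282–0.371 to 2.08–3.72 CPM (log2 fold change 3.03 ± 0.28, edgeR adjusted p = 0.00019). Igkc and Ighm, immunoglobulin constant regions, rose by 4.71 ± 0.38 and 2.92 ± 0.27, while Ms4a1, which encodes CD20, did not pass (log2 fold change 1.66 ± 0.58, edgeR adjusted p = 0.059). Jchain, which joins secreted antibodies, was under the filter level at PND8 and was read mainly in 12wk replicates 2 and 4, at 1.49 and 1.01 CPM. Of 12 neutrophil genes 5 had enough counts to be tested, and 5 were called higher (median 2.31). The whole list summed to only 0.791 to 2.75 CPM at PND8. S100a8 and S100a9 fell below the filter level (0.289 CPM) in PND8 libraries but in no 12wk library. The filter thus favoured members that are high at 12wk, and the count of 5 is in part set by it. S100a8 and S100a9, the calprotectin subunits, rose from 0.0313–0.342 and 0.0989–0.991 CPM to 0.639–1.47 and 1.00–3.48 CPM, by 2.19 ± 0.59 and 2.31 ± 0.68 on the log2 scale. Csf3r and Cxcr2, receptors for a granulocyte growth factor and for chemokines, rose by 3.51 ± 0.32 and 2.53 ± 0.59. Without 12wk replicate 1, 2 neutrophil genes were called, and without PND8 replicate 4, 3. In the fit of all 8 groups 2 of 11 were called. Ly6g, a granulocyte surface marker, had no count at either age.

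Mast cell genes ran the other way. Of 7 mast cell genes tested, 5 fell, 1 rose and 1 did not pass. Of the 7, 2 were below the filter level in every library of 1 age and entered the test through the other. Mcpt4, a mast cell chymase, stood at 2.63, 4.69, 1.74 and 1.53 CPM at PND8 and 0.0830, 0, 0.0300 and 0.0613 CPM at 12wk (log2 fold change -5.80 ± 0.66, edgeR adjusted p = 0.00048). Tpsb2, a tryptase, fell from 3.86–6.42 to 0.304–0.766 CPM (log2 fold change -2.98 ± 0.34, edgeR adjusted p = 0.00046), Cpa3, a carboxypeptidase, from 1.53–4.49 to 0.304–0.581 CPM (log2 fold change -2.51 ± 0.41, edgeR adjusted p = 0.0024), and Cma1 (log2 fold change -3.09 ± 0.41). Tpsab1 had no count at 12wk and was at least 4.05-fold lower. Hdc, which makes histamine, rose from 6.67–9.06 to 20.6–32.3 CPM (log2 fold change 1.62 ± 0.17, edgeR adjusted p = 0.00031). Kit, the stem cell factor receptor of mast cells that oocytes also carry, did not pass (log2 fold change -0.04 ± 0.38, edgeR adjusted p = 0.95). The median of the list was -2.98, or -2.51 with Tpsab1 at its bound.

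Complement genes rose in 9 of 14 members tested, with none lower. C4b rose from 0.193–0.464 to 6.67–13.5 CPM (log2 fold change 4.64 ± 0.35, edgeR adjusted p = 7.7e-05), C1s1, a protease of the C1 complex, from 20.0–34.9 to 113–204 CPM (log2 fold change 2.53 ± 0.23, edgeR adjusted p = 0.00019), and C3, the central component, from 2.92–8.55 to 5.66–36.9 CPM (log2 fold change 2.12 ± 0.57, edgeR adjusted p = 0.023). C3 was lowest at 12wk in replicate 2, inside the PND8 range, and it stayed called in 5 of 8 fits that each left out 1 library. C7 did not pass (log2 fold change 1.03 ± 0.61, edgeR adjusted p = 0.24). Receptors for complement fragments, C3ar1 and C5ar1, rose by 2.68 ± 0.28 and 2.69 ± 0.33.

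Interferon-response genes rose in 17 of 22 members tested, with none lower (median 2.67). Irf7, an amplifier of type I interferon, stood at 3.69, 2.20, 3.17 and 2.47 CPM at PND8 and 11.8, 39.3, 13.7 and 15.1 CPM at 12wk (log2 fold change 2.80 ± 0.41, edgeR adjusted p = 0.0017). 12wk replicate 2 stood far above the other 3 adult libraries, which in turn lay above all PND8 libraries. The largest changes were in Zbp1, Ifit3 and Oas1a, at 5.39 ± 1.21, 4.32 ± 0.47 and 3.88 ± 0.37. Summed over the list, the level was 1929.7 CPM in 12wk replicate 2, 585, 716 and 711 CPM in replicates 1, 3 and 4, and 407 to 513 CPM at PND8. Without 12wk replicate 2 the count stayed at 17 of 22 and the median was 2.10.

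**Figure D2:**
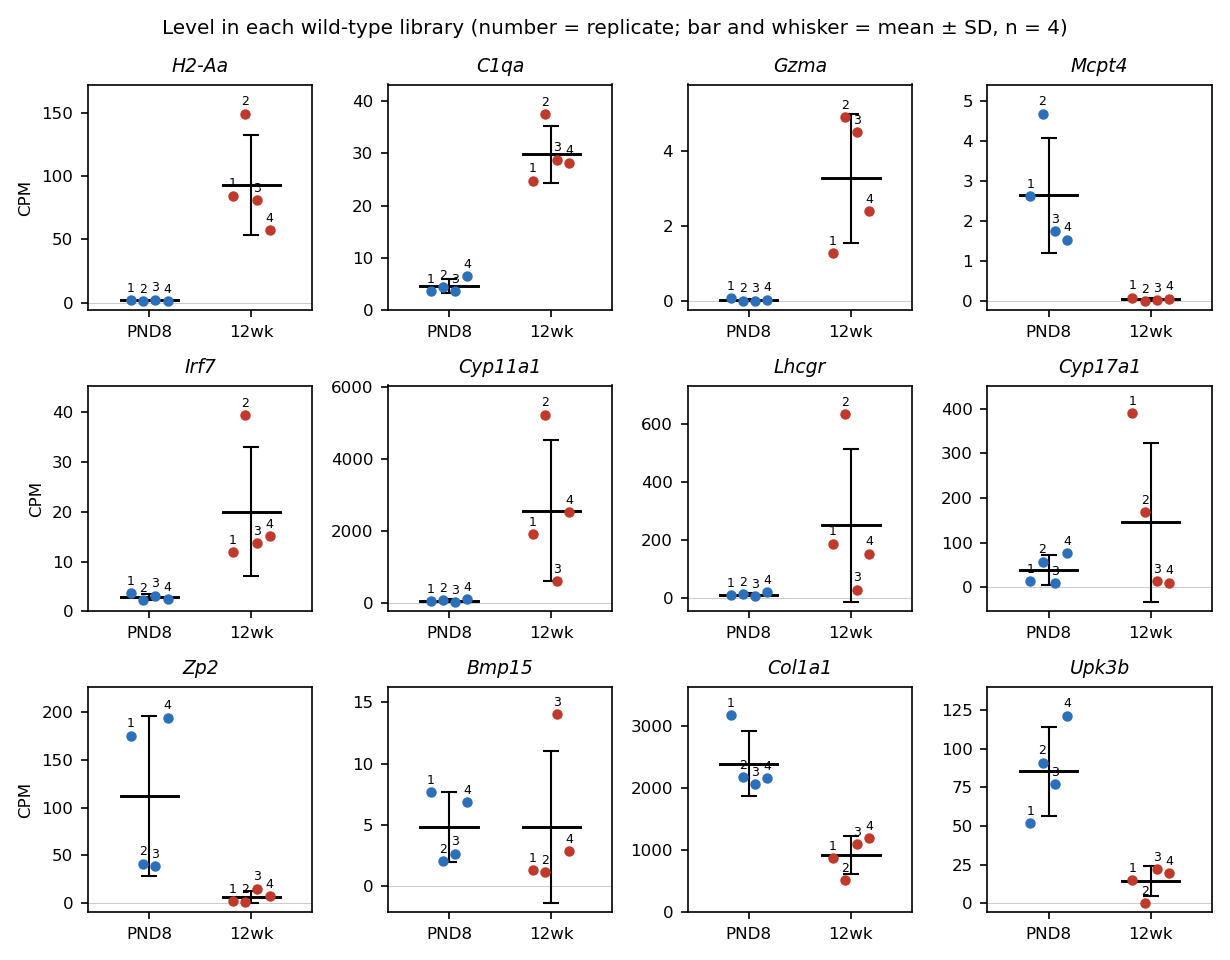
Level in CPM (vertical axis, linear) of 12 genes in each wild-type library, PND8 in blue and 12wk in red; small digits give the replicate, and the bar and whisker are the mean and SD of 4 libraries. H2-Aa, C1qa and Cyp11a1 separate the ages without overlap, Irf7 and Lhcgr are highest in 12wk replicate 2, Cyp17a1 is high in 12wk replicates 1 and 2 alone, and Bmp15 reaches its highest level, 14.0 CPM, in 12wk replicate 3.

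Steroid synthesis enzymes rose in 15 of 25 members tested, with none lower (median 1.29). The pathway begins with the transfer of cholesterol into mitochondria by Star and its cleavage to pregnenolone by Cyp11a1. Star stood at 16.7, 26.3, 18.6 and 24.7 CPM at PND8 and 147, 708, 153 and 333 CPM at 12wk (log2 fold change 3.96 ± 0.54, edgeR adjusted p = 0.0011). Cyp11a1 (ENSMUSG00000032323, chromosome 9, 58006411 to 58027023, plus strand, GRCm38) stood at 41.4, 74.5, 20.2 and 102 CPM at PND8 and 1899, 5229.8, 609 and 2518 CPM at 12wk, a 43.0-fold rise (log2 fold change 5.43 ± 0.78, edgeR adjusted p = 0.0014). The adult libraries themselves spanned a wide range, with replicate 3 the lowest and replicate 2 the highest, and none overlapped a PND8 library. Fdx1 and Fdxr, which hand electrons to Cyp11a1, rose by 3.03 ± 0.54 and 1.49 ± 0.22. Hsd3b1, which turns pregnenolone into progesterone, was already 918–1126 CPM at PND8 and reached 2221–5489 CPM (log2 fold change 1.63 ± 0.28, edgeR adjusted p = 0.0033).

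Androgen and oestrogen steps were less even. Cyp17a1, the androgen-forming enzyme of theca cells, did not pass: it stood at 13.7, 57.5, 9.23 and 76.4 CPM at PND8 and 389.7, 168, 14.2 and 10.5 CPM at 12wk (log2 fold change 1.89 ± 1.15, edgeR adjusted p = 0.25). Adult replicates 1 and 2 were above every PND8 library, and replicates 3 and 4 were inside the PND8 range. Cyp19a1, the aromatase that makes oestrogen in granulosa cells of large follicles, stood at 6.57, 9.94, 10.5 and 6.92 and 83.8, 57.4, 29.3 and 7.75 CPM (log2 fold change 2.39 ± 0.60, edgeR adjusted p = 0.017), and the ages overlapped through 12wk replicate 4. Hsd17b1, which makes oestradiol from oestrone, rose from 95.2–153 to 216–399 CPM (log2 fold change 1.25 ± 0.24, edgeR adjusted p = 0.005). Cyp1b1, which hydroxylates oestradiol, rose from 119–158 to 324–447 CPM (log2 fold change 1.46 ± 0.12, edgeR adjusted p = 0.00011), and Srd5a1, which reduces testosterone and progesterone, from 13.1–15.4 to 30.2–34.0 CPM (log2 fold change 1.18 ± 0.09, edgeR adjusted p = 7.7e-05). Srd5a1 varied little among the adult libraries.

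Cholesterol supply rose in 16 of 30 genes tested, with none lower (median 0.81). Scarb1, the receptor that takes up cholesterol esters from high-density lipoprotein, stood at 247, 295, 221 and 285 CPM at PND8 and 664, 1772, 482 and 756 CPM at 12wk (log2 fold change 1.81 ± 0.37, edgeR adjusted p = 0.007). Apoe, a lipoprotein ligand, rose 3.75-fold (log2 fold change 1.91 ± 0.20, edgeR adjusted p = 0.00032), and Lipe, which frees cholesterol from its esters, rose from 22.0–23.6 to 36.8–49.6 CPM (log2 fold change 0.98 ± 0.10, edgeR adjusted p = 0.00032). These 3 genes were higher in every adult library than in any PND8 library. Msmo1 and Dhcr7, enzymes of cholesterol synthesis, were called at 1.52 ± 0.30 and 1.71 ± 0.44, with 12wk replicate 2 highest in both. Without that library, 18 genes of the list were higher and 1 was lower, and the median was 0.45. Without PND8 replicate 2, or without PND8 replicate 4, 11 were higher and none lower.

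Luteal genes rose in 13 of 17 members tested, with none lower (median 3.20). Lhcgr, the receptor for luteinising hormone, stood at 7.83, 11.2, 4.66 and 17.8 CPM at PND8 and 186, 634, 27.3 and 152 CPM at 12wk (log2 fold change 4.58 ± 0.90, edgeR adjusted p = 0.0057). Prlr, the prolactin receptor, stood at 33.3, 22.0, 17.2 and 30.2 and 261, 588, 90.5 and 357 CPM (log2 fold change 3.66 ± 0.53, edgeR adjusted p = 0.0015). Ptgfr, the receptor for prostaglandin F2-alpha, which ends the life of the corpus luteum, stood at 2.57, 1.61, 2.08 and 1.51 and 196, 253, 44.2 and 70.5 CPM (log2 fold change 6.19 ± 0.63, edgeR adjusted p = 0.00034). All 3 receptors separated the ages, and all 3 were lowest at 12wk in replicate 3. Akr1c18, the enzyme that inactivates progesterone in regressing corpora lutea, rose from 5.61–12.0 to 23.0–112 CPM (log2 fold change 3.20 ± 0.47, edgeR adjusted p = 0.0016). Sfrp4, a secreted Wnt binder of luteal cells, went from 1.93–5.38 to 107–992 CPM (log2 fold change 6.97 ± 0.81, edgeR adjusted p = 0.0006), and Cdkn1a, a cell cycle inhibitor that granulosa cells switch on as they luteinise, from 2.15–3.60 to 9.39–37.3 CPM (log2 fold change 3.27 ± 0.42, edgeR adjusted p = 0.0009). Hsd17b7, an enzyme abundant in corpora lutea, stood at 64.3, 618, 32.3 and 61.5 CPM at 12wk against 23.0–30.5 CPM at PND8 (log2 fold change 2.90 ± 0.90, edgeR adjusted p = 0.038). Its rise came mostly from replicate 2, and it stayed called in 4 of 8 fits with 1 library left out. Cdkn1b, the gene targeted in the mutant mice of the series and a cell cycle inhibitor of luteal cells too, did not pass, at 123, 132, 155 and 129 and 119, 251, 120.3 and 219 CPM (log2 fold change 0.40 ± 0.25, edgeR adjusted p = 0.26).

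**Figure D3:**
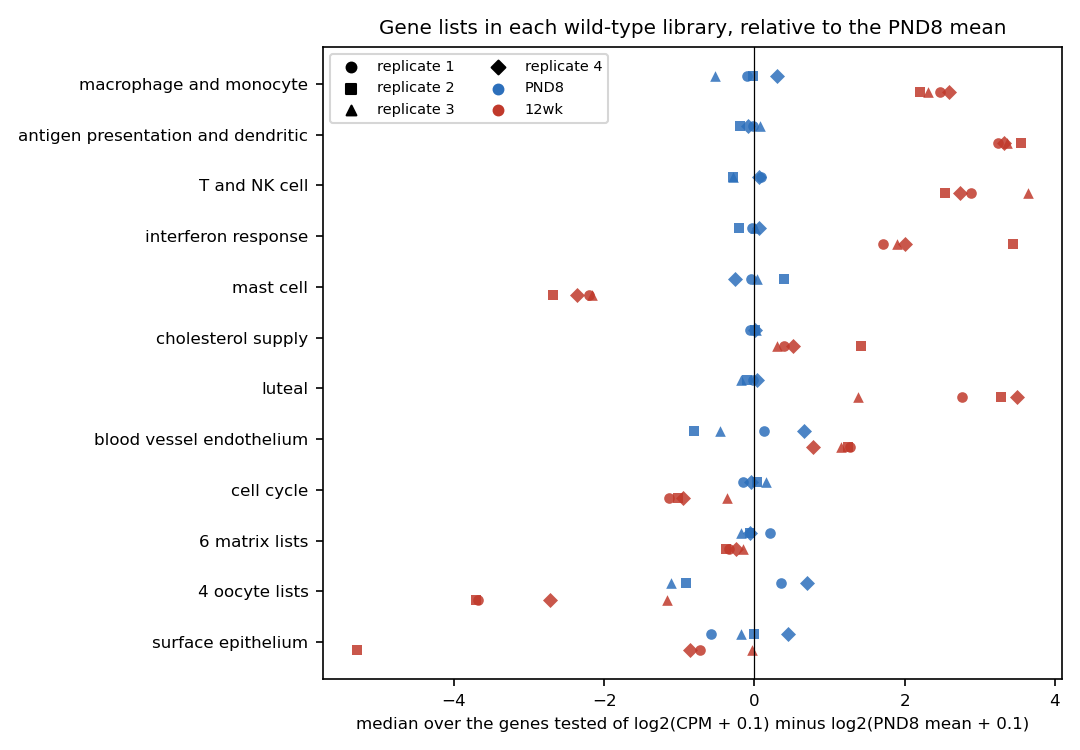
Median over the tested genes of each list of log2(CPM + 0.1) minus log2 of the PND8 mean + 0.1 (horizontal axis), for each library, PND8 in blue above and 12wk in red below each row line; marker shapes give replicates. 12wk replicate 2 stands apart in the interferon, cholesterol and surface epithelium lists, 12wk replicate 3 in the luteal and oocyte lists, and PND8 replicates 1 and 4 lie above 2 and 3 in the oocyte and blood vessel lists.

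Theca genes were split, with 7 of 16 higher and 2 lower, or 4 lower without PND8 replicate 3. The 7 included Star, Cyp11a1, Hsd3b1 and Lhcgr, which luteal cells share. Of the markers particular to theca by use, Insl3 stood at 0.459–2.57 and 1.07–3.04 CPM (log2 fold change 0.36 ± 0.55, edgeR adjusted p = 0.66) and Hhip at 41.3–123 and 42.2–64.0 CPM (log2 fold change -0.58 ± 0.29, edgeR adjusted p = 0.17), and neither passed. Gli1, a target of hedgehog signals from granulosa cells, fell from 65.2–115 to 13.5–48.3 CPM (log2 fold change -1.33 ± 0.36, edgeR adjusted p = 0.023), while Ptch1, the hedgehog receptor, did not pass (log2 fold change -0.20 ± 0.31, edgeR adjusted p = 0.68). Tcf21, a factor of stromal progenitors, fell from 105–184.7 to 25.9–53.2 CPM (log2 fold change -1.93 ± 0.25, edgeR adjusted p = 0.00088). Aldh1a1 and Mgarp rose, by 1.28 ± 0.10 and 5.55 ± 0.53. Mgarp is a mitochondrial protein of steroidogenic cells.

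Granulosa genes rose in 14 and fell in 3 of 33 members tested (median 0.56), and 6 fell without 12wk replicate 3. Foxl2, the transcription factor that keeps granulosa identity, fell by a small amount, from 412–475 to 283–401 CPM (log2 fold change -0.41 ± 0.12, edgeR adjusted p = 0.03), and stayed called in 3 of 8 fits with 1 library left out. Fshr, the receptor for follicle-stimulating hormone, rose from 11.5–15.5 to 21.8–53.9 CPM (log2 fold change 1.33 ± 0.29, edgeR adjusted p = 0.0092). Amh, the hormone of small growing follicles, did not pass, at 653, 744, 896 and 663 CPM at PND8 and 803, 297, 979 and 693 CPM at 12wk (log2 fold change -0.09 ± 0.31, edgeR adjusted p = 0.85). The 3 inhibin and activin subunits differed in size. Inhba stood at 7.73, 6.25, 16.5 and 6.67 CPM and then 982, 610.3, 368 and 171 CPM, a 57.3-fold rise (log2 fold change 5.84 ± 0.63, edgeR adjusted p = 0.00042). Inha rose 1.89-fold (log2 fold change 0.92 ± 0.18, edgeR adjusted p = 0.0056), and Inhbb did not pass, at 323–683 and 309–1042 CPM (log2 fold change 0.56 ± 0.37, edgeR adjusted p = 0.3). Runx1 and Runx2, factors of the ovulatory and luteal programme, rose by 1.18 ± 0.27 and 5.27 ± 0.80. Gatm, which makes a creatine precursor, and Wt1, a factor of early granulosa cells, fell (log2 fold changes -1.64 ± 0.36 and -0.97 ± 0.25), both lowest in 12wk replicate 2. Esr2, the oestrogen receptor of granulosa cells, did not pass (log2 fold change 0.43 ± 0.15, edgeR adjusted p = 0.061).

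Of 17 genes of the ovulatory surge and the cumulus, 4 rose, 2 fell and 11 did not pass. Over all genes tested 16.1% were higher and 14.3% lower, so these counts are not a result about the list. Pgr, the progesterone receptor that the surge switches on for a short time, was 1.18–2.60 CPM at PND8 and 0.766–1.64 CPM at 12wk (log2 fold change -0.50 ± 0.34, edgeR adjusted p = 0.3). Ptgs2, the prostaglandin synthase of ovulation, was 0–0.376 and 0.120–0.852 CPM (log2 fold change 1.75 ± 0.83, edgeR adjusted p = 0.14). Adamts1, a protease of the ovulating follicle, was highest in 12wk replicate 4, at 56.0, 93.4, 29.8 and 257 CPM across the 4 adult libraries against 33.1–49.8 at PND8 (log2 fold change 1.42 ± 0.57, edgeR adjusted p = 0.092). Tnfaip6, which builds the cumulus matrix, and Snap25, an exocytosis protein, fell (log2 fold changes -1.05 ± 0.28 and -2.28 ± 0.66). Cebpb and Fosl2, transcription factors of luteinising cells, rose by 2.36 ± 0.38 and 1.70 ± 0.25. Without PND8 replicate 4, 3 rose and 0 fell. The immediate-early gene Fos split the PND8 libraries, at 719, 432, 48.7 and 19.2 CPM, and was 136, 33.4, 13.5 and 10.2 CPM at 12wk (log2 fold change -2.66 ± 1.21, edgeR adjusted p = 0.13). PND8 replicates 1 and 2 were far above replicates 3 and 4.

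Oocyte transcripts made up a smaller share of the adult libraries, and the changes of single genes ranged widely. Over the 4 oocyte lists, 35 of 61 genes tested fell, 2 rose and 24 did not pass, with a median of -2.42. Summed over the lists, the level was 1774, 675, 696 and 1994 CPM at PND8 and 343, 307, 573 and 334 CPM at 12wk. Members that were not lower, such as Tdrd5 and Taf4b, are part of these sums, so the sums understate the fall of the other members. The 5 defining oocyte markers alone summed to 70.3 to 276 CPM at PND8 and 5.63 to 65.6 CPM at 12wk. PND8 replicates 1 and 4 held more than replicates 2 and 3, and 12wk replicate 3 was the richest adult library. Without 12wk replicate 3, 51 of 61 fell and the median was -3.60; without any other single library, 26 to 34 fell.

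Oocyte transcription factors had the lowest median of the 4 lists, with 9 of 12 lower and none higher (median -3.43), and 3 of the 12 were below the filter level in every library of 1 age and entered the test through the other. Figla, which starts the programme that forms primordial follicles, stood at 3.41, 2.25, 1.47 and 6.53 CPM at PND8 and 0, 0, 0.270 and 0.0307 CPM at 12wk (log2 fold change -5.45 ± 0.98, edgeR adjusted p = 0.0038). Sohlh1, Lhx8 and Nobox, which carry oocytes through the first steps of growth, fell from 3.38–12.1, 2.25–8.26 and 6.67–31.1 CPM to 0.111–0.736, 0–1.29 and 0.581–5.43 CPM. Their log2 fold changes were -4.33 ± 0.63, -3.75 ± 1.02 and -3.12 ± 0.80, and Lhx8 stayed called in 4 of 8 fits with 1 library left out. Sohlh2 kept 3 counts of 422, a ratio of 123 (95% exact interval 41.7 to 597, edgeR adjusted p = 0.0014). Tbpl2, the basal transcription factor of growing oocytes, fell (log2 fold change -5.21 ± 0.85). Obox1 and Obox5, homeobox genes of the growing oocyte, did not pass, at -0.69 ± 0.79 and -0.74 ± 0.95.

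Some genes of meiotic prophase and of small-RNA defence were at or near 0 in the adult. Sycp1, the central element of the synaptonemal complex, had 184 counts at PND8 and none at 12wk, at least 13.5-fold lower (edgeR adjusted p = 0.0034). Sycp3, its lateral element, had 439 and 1, and Mael, a piRNA factor, fell from 1.47–15.2 to 0–0.300 CPM (log2 fold change -6.42 ± 1.04, edgeR adjusted p = 0.0025). In the list of RNA-binding and meiotic arrest genes, 13 of 17 fell and 1 rose. Of the 17, 2 were below the filter level in every library of 1 age and entered the test through the other. Ddx4, the germ cell helicase, stood at 7.58, 2.83, 2.01 and 8.53 and 0.249, 0.396, 0.750 and 0.582 CPM (log2 fold change -3.40 ± 0.57, edgeR adjusted p = 0.0027). Dazl, a translational regulator, and Mos, the kinase that holds the egg in metaphase, did not pass, at -1.82 ± 0.66 and -2.02 ± 0.96. Tdrd5 was the gene that rose (log2 fold change 0.57 ± 0.14, edgeR adjusted p = 0.013), from 52.1–80.4 CPM at PND8.

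Zona pellucida and secreted factors fell in 3 and rose in 1 of 10 members tested. Zp2 and Zp3, proteins of the egg coat, stood at 175, 41.1, 38.4 and 194 and 87.5, 20.2, 27.6 and 93.7 CPM at PND8. At 12wk they stood at 1.66, 1.07, 15.0 and 7.02 and 1.41, 0.761, 11.9 and 4.02 CPM, with log2 fold changes of -4.19 ± 0.93 and -3.66 ± 0.87 (edgeR adjusted p = 0.0098 and 0.013). Gdf9 and Bmp15 are the paired growth factors by which oocytes direct granulosa cells. Gdf9 stood at 71.4, 20.2, 27.9 and 81.7 CPM and then 4.15, 2.43, 32.5 and 7.97 CPM and did not pass (log2 fold change -2.10 ± 0.81, edgeR adjusted p = 0.081). Bmp15 stood at 7.67, 2.08, 2.66 and 6.87 CPM and then 1.301, 1.16, 14.0 and 2.85 CPM, and did not pass either (log2 fold change 0.01 ± 0.82, edgeR adjusted p = 1). Bmp6, which granulosa and theca cells can also make, was the gene that rose (log2 fold change 0.59 ± 0.18, edgeR adjusted p = 0.036). Zp1, the third coat gene, fell (log2 fold change -2.90 ± 0.88). Without 12wk replicate 1, and likewise without PND8 replicate 4, 2 genes of the list fell and 0 rose. Without 12wk replicate 3, 6 of 10 fell and the median was -3.05, against -1.98 with all libraries.

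Maternal-effect genes, whose products are stored in the egg for the embryo, fell in 10 of 22 members tested with none higher, and in 19 of 22 without 12wk replicate 3. Padi6, Nlrp5 and Ooep, parts of the subcortical maternal complex and the egg's lattices, fell (log2 fold changes -4.28 ± 0.90, -3.91 ± 0.75 and -3.98 ± 0.68). Padi6 stood at 307, 85.1, 104 and 333 CPM at PND8 and 2.88, 2.01, 28.0 and 9.96 CPM at 12wk (edgeR adjusted p = 0.0076). Dppa3 and Gtsf1 fell (log2 fold changes -4.69 ± 0.89 and -4.89 ± 1.03). Nlrp9a, Nlrp9b, Btg4 and Bcl2l10 did not pass, at 0.01 ± 0.99, -0.21 ± 0.96, -1.41 ± 0.77 and -1.16 ± 0.84. Nlrp and Obox genes lie in families of close copies, so their single values are uncertain.

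The ratio of one oocyte gene to another within a library does not depend on how large a part of the tissue oocytes are, provided that oocytes alone make both. Per library, the log2 ratio of Padi6 to Gdf9 was 2.10, 2.07, 1.89 and 2.03 at PND8 and -0.53, -0.28, -0.21 and 0.32 at 12wk, 2 sets far apart. The log2 ratio of Zp2 to Gdf9 went from 1.01 ± 0.39 to -0.95 ± 0.52 (SD, n = 4 each, here and below), that of Zp3 to Gdf9 from 0.12 ± 0.15 to -1.41 ± 0.30, and that of Zp1 to Gdf9 from -1.30 ± 0.36 to -1.87 ± 0.45, with libraries of the 2 ages overlapping for Zp1. The log2 ratio of Bmp15 to Gdf9 ran the other way, from -3.36 ± 0.16 to -1.35 ± 0.27, and that of Obox1 to Gdf9 from -4.44 ± 0.25 to -2.85 ± 0.33. These ratios have 0.5 counts added to each value. They are given as a description of the libraries with no test. Relative to Gdf9, Zp2, Zp3 and Padi6 were lower in every adult library than in any PND8 library, and Bmp15 and Obox1 were higher. Obox1 stood at only 0.456 to 0.889 CPM at 12wk outside replicate 3. Other oocyte genes kept their mean ratio to Gdf9. That of H1foo was -1.31 ± 0.17 and then -1.32 ± 0.56, and that of Cpeb1 -1.95 ± 0.33 and then -1.92 ± 0.24.

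**Figure D4:**
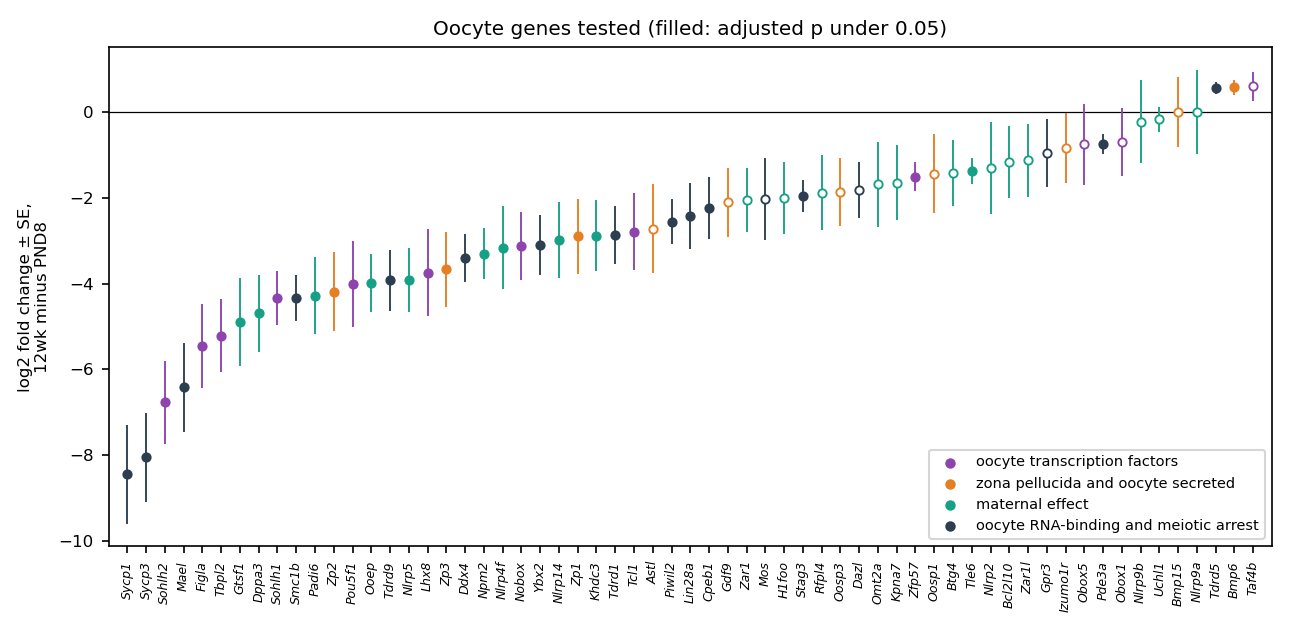
Log2 fold change (12wk minus PND8, vertical axis) with its standard error for each of the 61 oocyte genes tested, in order of size; colours give the list, and filled points passed an adjusted p under 0.05. Values run from -8.45 for Sycp1, which had no count at 12wk, to 0.61 for Taf4b, with Bmp15 at 0.01.

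Matrix genes moved in both directions, with 39 of 105 genes lower and 21 higher over 6 lists. Over all genes tested 14.3% were lower and 16.1% higher. Fibrillar collagens and the enzymes that crosslink them fell in 14 of 23 members and rose in 2 (median -0.73). Col1a1 and Col1a2 are the chains of type I collagen. Col1a1 (chromosome 11, 94936224 to 94953042, plus strand, GRCm38) stood at 3179, 2178, 2063 and 2161 CPM at PND8 and 874, 524, 1103 and 1203 CPM at 12wk (log2 fold change -1.37 ± 0.26, edgeR adjusted p = 0.0049). Col1a2 stood at 4321, 3758, 3029.6 and 3459 and 1688, 1026, 1633 and 1651 CPM (log2 fold change -1.28 ± 0.18, edgeR adjusted p = 0.0014). No adult library reached a PND8 library in either gene, and 12wk replicate 2 was lowest. Col3a1 fell from 2335–3224 to 1029–1972 CPM (log2 fold change -0.79 ± 0.21, edgeR adjusted p = 0.021), and Lox, which crosslinks collagen and elastin, from 35.9–72.4 to 9.66–35.1 CPM (log2 fold change -1.16 ± 0.36, edgeR adjusted p = 0.039). Col12a1, a collagen that decorates fibrils, fell most (log2 fold change -2.57 ± 0.34), and P4ha3 and Loxl1, a collagen hydroxylase subunit and a crosslinking enzyme, fell (log2 fold changes -1.80 ± 0.28 and -1.71 ± 0.27). Plod2, which hydroxylates collagen lysines for stable crosslinks, rose from 86.4–119.8 to 164–388 CPM (log2 fold change 1.26 ± 0.25, edgeR adjusted p = 0.0059), and its relative Plod1 by 0.35 ± 0.10.

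Elastic fibre genes fell in 9 and rose in 3 of 16 members tested (median -0.81). Eln, which encodes elastin, stood at 228, 201, 206 and 219 CPM at PND8 and 30.3, 31.1, 38.5 and 36.04 CPM at 12wk, a 6.29-fold fall with little spread in either group (log2 fold change -2.65 ± 0.10, edgeR adjusted p = 1.0e-05). Mfap4 and Fbln5, which organise elastic fibres, fell (log2 fold changes -2.89 ± 0.27 and -1.85 ± 0.14). Fbn1 and Fbn2, the microfibril scaffolds, fell from 564–992 and 613–892 CPM to 268–419 and 188–413 CPM (log2 fold changes -0.91 ± 0.21 and -1.47 ± 0.25). Ltbp1, which tethers latent TGF-beta to microfibrils, rose from 81.0–166 to 284–685 CPM (log2 fold change 2.00 ± 0.29, edgeR adjusted p = 0.0016), and Efemp1 and Ltbp3 by 1.69 ± 0.25 and 0.34 ± 0.11.

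Basement membranes are the sheets around follicles and vessels. Of 17 of their genes, 6 fell, 3 rose and 8 did not pass, with a median of 0.01. Col4a1, the major type IV chain, was 1383–1769 CPM at PND8 and 1463–2013 CPM at 12wk (log2 fold change 0.20 ± 0.14, edgeR adjusted p = 0.3), and Hspg2, which encodes perlecan, was 972–1871 and 1062–1560.0 CPM (log2 fold change 0.01 ± 0.22, edgeR adjusted p = 0.99). Egflam, Nid1, Col18a1 and Lama2 fell (log2 fold changes -1.32 ± 0.21, -1.22 ± 0.25, -1.18 ± 0.20 and -0.94 ± 0.26). Lamb2, Lama5 and Col15a1 rose, by 0.85 ± 0.11, 0.85 ± 0.20 and 1.82 ± 0.25, and Lamb1, the other common beta chain, fell (log2 fold change -0.86 ± 0.15).

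Proteoglycans fell in 4 and rose in 2 of 15 members. Dcn, Lum and Vcan did not pass, at -0.83 ± 0.32, -0.13 ± 0.39 and -0.11 ± 0.23. Gpc3 and Hapln1 fell, Gpc3 from 244–297 to 57.8–92.8 CPM (log2 fold change -1.97 ± 0.16, edgeR adjusted p = 8.8e-05) and Hapln1, which links hyaluronan to proteoglycans, from 5.88–7.25 to 0.368–1.07 CPM (log2 fold change -3.03 ± 0.31, edgeR adjusted p = 0.00031). Fmod, which binds collagen fibrils, fell (log2 fold change -1.56 ± 0.24). Acan, which encodes aggrecan, rose from 1.31–2.51 to 2.40–4.17 CPM (log2 fold change 0.92 ± 0.28, edgeR adjusted p = 0.036), and Gpc6 by 0.93 ± 0.27. Without PND8 replicate 2, and likewise without PND8 replicate 4, 3 proteoglycan genes fell and 0 rose. Among matricellular genes 3 rose and 2 fell of 12. With 16.1% of all genes tested higher and 14.3% lower, the counts of these 2 small lists are not a result about the lists. Postn fell from 93.1–109.6 to 7.79–19.7 CPM (log2 fold change -2.89 ± 0.25, edgeR adjusted p = 0.00016), Spp1, which encodes osteopontin, rose from 0.282–0.870 to 4.68–44.0 CPM (log2 fold change 5.00 ± 0.80, edgeR adjusted p = 0.0023), and Tnc, which encodes tenascin C, was called at 1.21 ± 0.38 but with ranges that overlapped, 127–325 and 261–736 CPM. Thbs2 fell (log2 fold change -1.94 ± 0.20), while Thbs1 rose by 0.67 ± 0.16. Fn1 and Sparc did not pass, at -0.35 ± 0.20 and -0.22 ± 0.12.

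Matrix proteases and their inhibitors rose in 8 and fell in 4 of 22 members tested. Mmp2, the gelatinase of stromal cells, fell from 488–667 to 97.3–288 CPM (log2 fold change -1.43 ± 0.30, edgeR adjusted p = 0.0076). Htra3 and Mmp23 fell (log2 fold changes -0.99 ± 0.25 and -0.57 ± 0.12). Mmp13, a collagenase, had no count at PND8 and 104 counts at 12wk, at least 9.86-fold higher (edgeR adjusted p = 0.0016). Mmp11 and Adamts5 rose by 1.26 ± 0.14 and 2.82 ± 0.68. The inhibitors Timp1 and Timp3 rose by 0.83 ± 0.21 and 0.66 ± 0.11, and Timp4, at 1.47, 5.17, 0.930 and 12.3 CPM at 12wk, by 4.07 ± 0.84, with 12wk replicates 2 and 4 well above 1 and 3.

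**Figure D5:**
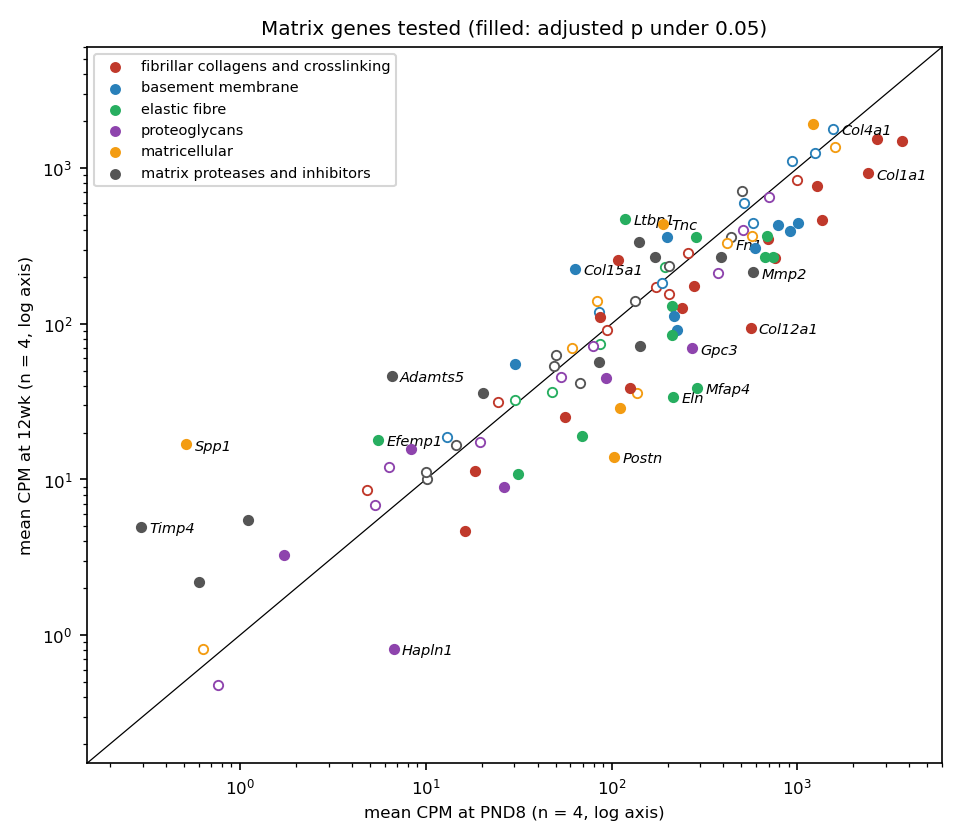
Mean CPM at 12wk (vertical) against mean CPM at PND8 (horizontal) of the matrix genes tested, n = 4 libraries each, on log axes; colours give the list, filled points passed an adjusted p under 0.05, and the line marks equal means. Mmp13, with no count at PND8, cannot be drawn on a log axis; Eln, Mfap4, Postn and Col12a1 lie well below the line, and Ltbp1, Adamts5, Spp1 and Timp4 above it.

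Proliferation genes fell almost as a block. Of 42 cell cycle genes, 39 fell and none rose, and the fold changes were tightly grouped, between -1.14 and -0.43 (median -0.85). Mki67, which marks cycling cells, stood at 620.5, 488, 721 and 497 CPM at PND8 and 252, 257, 409 and 318 CPM at 12wk (log2 fold change -0.91 ± 0.19, edgeR adjusted p = 0.0068). Top2a, Ccnb1 and Mcm5, genes of chromosome segregation, mitotic entry and replication, fell (log2 fold changes -0.76 ± 0.20, -0.76 ± 0.18 and -0.88 ± 0.22). The largest falls were those of Gins1, Tyms and Birc5, genes of replication forks, thymidine synthesis and cell division, at -1.14 ± 0.19, -1.14 ± 0.18 and -1.09 ± 0.18. In each of these 7 genes, 12wk replicate 3 was the highest adult library. The 3 members that did not pass were Plk1, E2f2 and Ccnd2.

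Fetal and imprinted growth genes fell in 13 of 18 members tested, with none higher (median -1.55). Igf2, the fetal growth factor, fell from 29.5–45.2 to 3.71–9.78 CPM (log2 fold change -2.29 ± 0.30, edgeR adjusted p = 0.00094), and Dlk1, an imprinted gene of immature stroma, from 21.9–36.4 to 1.22–4.69 CPM (log2 fold change -3.44 ± 0.43, edgeR adjusted p = 0.00075). Igf2bp2 and Igf2bp3, which bind fetal growth messages, fell (log2 fold changes -4.10 ± 0.55 and -3.01 ± 0.37), while Igf2bp1 was under 1 CPM in every library and did not pass (log2 fold change -0.55 ± 0.81, edgeR adjusted p = 0.65). Peg3, Grb10 and Magel2, all imprinted, fell (log2 fold changes -2.70 ± 0.48, -1.54 ± 0.12 and -4.06 ± 0.72). H19, which shares its imprinted domain with Igf2, did not follow it: it stood at 70.8, 88.6, 74.5 and 88.3 CPM at PND8 and 27.2, 40.7, 142 and 147 CPM at 12wk, with adult replicates 1 and 2 below and 3 and 4 above the PND8 range (log2 fold change 0.14 ± 0.49, edgeR adjusted p = 0.85).

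Blood vessel genes rose in 14 of 16 members tested, with none lower (median 1.12). Pecam1, which encodes CD31, stood at 38.6, 19.5, 26.0 and 57.8 CPM at PND8 and 94.7, 105, 87.9 and 62.4 CPM at 12wk (log2 fold change 1.303 ± 0.32, edgeR adjusted p = 0.015). Cdh5, which encodes VE-cadherin, rose less, from 109–174 to 178–217 CPM (log2 fold change 0.53 ± 0.15, edgeR adjusted p = 0.027), and Vwf did not pass (log2 fold change 1.10 ± 0.39, edgeR adjusted p = 0.062). Ly6c1, Cldn5 and Flt1, a surface antigen, a tight junction protein and a VEGF receptor, had the largest rises, at 2.15 ± 0.48, 1.69 ± 0.31 and 1.68 ± 0.38. PND8 replicates 2 and 3 were the lowest in Pecam1, Cdh5 and Vwf, and without PND8 replicate 2, 12wk replicate 1 or PND8 replicate 3 the count of rises was 7, 7 and 8 of 16. Haemoglobin genes split the PND8 libraries the same way. Hbb-bs stood at 73.9, 3.10, 3.55 and 53.3 CPM at PND8 and 59.0, 34.9, 37.8 and 45.6 CPM at 12wk (log2 fold change 0.41 ± 0.89, edgeR adjusted p = 0.77), and Hba-a1 at 15.6, 0.635, 1.06 and 11.6 and 16.8, 10.5, 11.5 and 10.5 CPM. None of the 5 red blood cell genes tested passed in edgeR, 0 had an unadjusted p under 0.05, and DESeq2 called 0. The part of blood content in the vessel results was not tested. Csf1r, the macrophage gene, stood at 14.7 and 11.5 CPM in the PND8 libraries with little haemoglobin and at 11.2 and 16.6 CPM in the others. The whole macrophage list summed to 103 and 77.9 CPM in the libraries with little haemoglobin and to 110 and 119 CPM in the others.

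Lymphatic genes showed 1 fall in 6, in Pdpn, which other cells share (log2 fold change -0.92 ± 0.28, edgeR adjusted p = 0.034). Prox1 and Flt4 did not pass, at -0.84 ± 0.37 and 0.82 ± 0.30. Smooth muscle and pericyte genes rose in 1 of 14, Rgs5, a pericyte marker, from 15.4–46.6 to 92.4–136 CPM (log2 fold change 1.78 ± 0.32, edgeR adjusted p = 0.0038). Acta2 and Myh11 did not pass, at -0.16 ± 0.26 and 0.81 ± 0.41. Without 12wk replicate 2 or PND8 replicate 1, 3 and 4 genes of that list were higher. Surface epithelium genes passed in none of 12 in edgeR, 4 had an unadjusted p under 0.05, and DESeq2 called 1 lower. Upk3b, a mesothelial marker, stood at 51.9, 91.1, 77.1 and 121 CPM at PND8 and 14.9, 0.0304, 21.8 and 19.3 CPM at 12wk (log2 fold change -2.60 ± 0.88, edgeR adjusted p = 0.052), and Krt19 at 10.5, 0.0609, 21.6 and 10.4 CPM at 12wk against 34.1–76.4 at PND8 (log2 fold change -2.50 ± 0.86, edgeR adjusted p = 0.056). Msln stood at 8.83, 0.0609, 10.7 and 6.96 CPM at 12wk, so all 3 markers were near 0 in 12wk replicate 2. The part of surface cells in the other values of that library was not tested. Without that library 3 of 12 were lower and none higher, and without 12wk replicate 3, 2. Foxj1 and Ovgp1, oviduct markers, did not pass, and Pax8, another, fell (log2 fold change -4.18 ± 0.68, edgeR adjusted p = 0.0024). Plin1, an adipocyte marker that steroid cells share, did not pass, and Adipoq was under the filter. Fabp4, which fat cells, vessels and macrophages share, rose (log2 fold change 4.17 ± 0.62, edgeR adjusted p = 0.0016). Of the Schwann cell and neuron genes, Tubb3, a neuronal tubulin, rose (log2 fold change 1.83 ± 0.43, edgeR adjusted p = 0.012). Th and Elavl4 fell (log2 fold changes -5.23 ± 0.88 and -0.72 ± 0.24), while Sox10 was under the filter.

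The 3 PND8 and 3 12wk libraries of Cdkn1b -/- ovaries, labelled as null for the gene of the cell cycle inhibitor p27Kip1, give a comparison of the same ages in the other genotype. Cdkn1b stood at 40.1 to 71.5 CPM in these 6 libraries, against 119 to 251 CPM in the 8 wild-type libraries. Gene totals do not show which part of the gene the remaining reads come from. Of 17437 genes tested there, 29.1% were called. Of the 5162 genes called in wild type that could be tested in the mutant, 4944 (95.8%) had the same sign and 3155 were called with the same sign, which is 61.1% of these wild-type genes and 62.2% of the 5071 genes called in the mutant. Macrophage genes rose in 19 of 21 in the mutant, antigen presentation genes in 15 of 17, and cell cycle genes fell in 40 of 42. Other lists had different counts. B cell genes were called in 0 of 8 in edgeR in the mutant against 6 of 7 in wild type (3 had an unadjusted p under 0.05 and DESeq2 called 2 higher). Neutrophil genes were called in 0 of 8 in edgeR against 5 of 5 (0 had an unadjusted p under 0.05 and DESeq2 called 0 higher). Elastic fibre genes fell in 2 of 16 in edgeR against 9 (8 had an unadjusted p under 0.05 and DESeq2 called 5 lower). Of the 12 called in wild type, 11 had the same sign in the mutant. Granulosa genes rose in 6 and fell in 8 of 33 against 14 and 3 (18 had an unadjusted p under 0.05, and DESeq2 called 8 higher and 9 lower). Smooth muscle and pericyte genes rose in 10 of 14 against 1. A difference between the genotypes was tested for single genes, not for these lists. Oocyte genes fell in 56 of 63, with a median of -5.37 against -2.42 in wild type. A test of the difference of the age effect between genotypes called 2 of 18768 genes (0.0107%), while 2064 had an unadjusted p under 0.05. Rarres2, which encodes the chemoattractant chemerin, did not pass in wild type (59.5–85.8 and 53.3–76.4 CPM, log2 fold change -0.22 ± 0.15), and its log2 fold change was 1.77 in the mutant, a difference of 2.00 ± 0.23 (edgeR adjusted p = 0.0066). Hoxd8, a homeobox gene, had log2 fold changes of -0.28 ± 0.10 in wild type and 1.03 in the mutant, a difference of 1.303 ± 0.14 (edgeR adjusted p = 0.0066). No gene of the oocyte lists passed that test. DESeq2 called 307 genes in it.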

How the data were processed

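Total RNA of papain-dissociated ovaries was sequenced, and 1 gene table was deposited by the authors with expected counts per gene, estimated by RSEM 1.3.0. STAR 2.5.2, Trim Galore and FastQC 0.11.5 are also named in the submitters' processing notes; the genome build and annotation release are not given in the sources used here. RSEM divides reads among similar genes, so values of close copies are uncertain, and whether counting used strand is not given. Expected counts were rounded to whole numbers (32.3% of values above 0 were not whole within 0.001). Symbols and GRCm38 positions from GENCODE M21 matched 51633 of 51912 gene identifiers, and promoter sequences came from RefSeq.

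Genes were tested with edgeR 4.0.16 in R 4.3.3 (filterByExpr with a minimum count of 10, TMM, robust quasi-likelihood, Benjamini-Hochberg adjusted p under 0.05) on the 8 wild-type libraries without covariates. A folder name in the column headers speaks of 2 combined sets, without saying what they are. Which libraries belong to which set is not given, so a difference between the sets was not tested. The standard error is the log2 fold change over the square root of F. Single library measures were tested by exact permutation. The test was also run on simulated counts of 17293 genes, of which 200 were changed. It recovered 59% of changes of 1 and 83% of changes of 2 on the log2 scale, and 4.7% of the calls were false. In the data a much larger share, 30.5%, was called, so these rates are not those of the real comparison. Alternatives used DESeq2 1.42.0, limma-voom (limma 3.58.1), other library sizes and filters, thinned counts, all 8 groups in 1 fit, a replicate block and the removal of each library.

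The libraries, 35 gene lists (580 symbols, 532 tested), tests and rules were chosen with earlier results of these data known. In the luteal, interferon, fetal growth, matrix protease, oviduct, adipocyte and Schwann cell lists, 1 gene each was below the filter level in every library of 1 age. Genes named are the 10 largest rises and falls with a mean of at least 2 CPM and no overlap of ages, set key genes of each list, up to 3 called genes per list and direction with the largest change, Cdkn1b, and genes called for a genotype difference. A few genes that the rule names are not reported here. Outside this rule, chosen after their values were seen, are Aldh1a1, Bcl2l10, Btg4, C1s1, Ccl21a, Ccnd2, Cd3d, Cdkn1a, Cyp1b1, E2f2, Fdx1, Fdxr, Fos, Grb10, H2-DMa, H2-DMb1, H2-DMb2, H2-Oa, H2-Ob, Igf2bp3, Ighm, Kit, Lamb1, Ly6g, Lyve1, Mmp11, Msmo1, Nlrp9a, Nlrp9b, Obox1, Obox5, Peg3, Plk1, Srd5a1, Taf4b, Tpsb2 and Xcr1.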

Additional observations from a re-analysis of the deposited data

Results flagged for a closer look

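Sample values that lie far from the 3 other libraries of their age were sought with Dixon's test, which asks whether the gap to the nearest library is a larger share of the whole range than the 95% critical value allows. It marked 57 of 544 sets of 4 values, where chance alone would mark about 1 in 20. Genes are not independent within a library, so 1 unusual library marks many. Where the 3 other libraries are at 0, any count at all is marked. This was so for Cd209a, Gzmb, Mov10l1, Nkg7, Sohlh2 and Sycp3, each with 3 counts or fewer. All values of Xcr1 at PND8 were under the floor of 3 counts. These 7 marks are not readable as outliers, though they are part of the 57. All values are CPM unless stated, with the range of the other 3 libraries in brackets.

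Bmp15 stood at 14.0 (1.16 to 2.85), Btg4 at 4.17 (0.498 to 0.797), Cd3d at 1.08 (0.443 to 0.548) and Cd8a at 1.65 (0.609 to 0.747), above the others in 12wk replicate 3. Dppa3 stood at 4.02 (0.166 to 0.766), Figla at 0.270 (0 to 0.0307), Gtsf1 at 0.990 (0.0304 to 0.0920) and Hsd17b1 at 399 (216 to 233), in that library too. Lhx8 stood at 1.29 (0 to 0.138), Mael at 0.300 (0 to 0.0307), Mos at 2.55 (0.0304 to 0.460) and Mov10l1 at 0.0300 (0 to 0), in that library too. Nlrp9a stood at 2.31 (0.0830 to 0.306), Nlrp9b at 6.30 (0.213 to 1.16), Obox1 at 4.08 (0.456 to 0.889) and Obox5 at 4.2002 (0.166 to 0.582), in that library too. Sycp3 stood at 0.0300 (0 to 0), Trac at 3.57 (1.49 to 1.74) and Trim71 at 0.900 (0.0277 to 0.0613), in that library too. Col1a1 stood at 3179 (2063 to 2178), Cxcl10 at 1.44 (0.652 to 0.742), Fbn1 at 992 (564 to 623) and Hspg2 at 1871 (972 to 1106), above the others in PND8 replicate 1. Nid1 stood at 1124 (842 to 848), Nkg7 at 0.0939 (0 to 0), Thbs2 at 146 (96.7 to 102) and Zbp1 at 0.595 (0.0242 to 0.0989), in that library too. Aldh1a1 stood at 267 (325 to 332) and Xcr1 at 0 (0.0483 to 0.0494), below the others in PND8 replicate 1. Cxcl10 stood at 24.1 (1.72 to 2.04), Cxcl9 at 2.83 (0.300 to 0.526), H2-DMb1 at 15.4 (6.16 to 7.06) and Hsd17b7 at 618 (32.3 to 64.3), above the others in 12wk replicate 2. Irf7 stood at 39.3 (11.8 to 15.1), Plin4 at 829 (27.3 to 119) and Zbp1 at 24.3 (2.13 to 2.73), in that library too. Col1a2 stood at 1026 (1633 to 1688) and Gatm at 44.5 (149 to 165), below the others in 12wk replicate 2. Csf3r stood at 0.749 (0.396 to 0.440), Inha at 1354 (1136 to 1155), Inhba at 16.5 (6.25 to 7.73) and Peg3 at 709 (310.4 to 361), above the others in PND8 replicate 3. Dcn stood at 304 (398 to 401), H2-Oa at 0.0483 (0.122 to 0.125) and Htra3 at 100.01 (154 to 159.6), below the others in PND8 replicate 3. Efemp1 stood at 24.9 (14.9 to 16.6), Mmp23 at 65.8 (53.3 to 54.9), Sohlh2 at 0.0920 (0 to 0) and Spp1 at 44.0 (4.68 to 10.6), above the others in 12wk replicate 4. Cd209a stood at 0.0244 (0 to 0) and Cebpb at 3.71 (2.63 to 2.74), above the others in PND8 replicate 2. Sox10 stood at 0.0488 (0.242 to 0.272), below the others in PND8 replicate 2. Gzmb stood at 0.0494 (0 to 0), Ly6c1 at 12.4 (3.25 to 4.63) and Tubb3 at 5.51 (2.66 to 3.10), above the others in PND8 replicate 4. C7 stood at 6.31 (1.29 to 1.93) and Hba-a1 at 16.8 (10.5 to 11.5), above the others in 12wk replicate 1.

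A difference of the age effect between genotypes passed the test of the difference itself in 2 genes. Rarres2 changed with age by 1.77 on the log2 scale in Cdkn1b -/- ovaries and by -0.22 in wild type, a difference of 2.00 ± 0.23 (edgeR adjusted p = 0.0066). Hoxd8 changed with age by 1.03 on the log2 scale in Cdkn1b -/- ovaries and by -0.28 in wild type, a difference of 1.303 ± 0.14 (edgeR adjusted p = 0.0066).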

How the results depend on the processing

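The wild-type count of 5271 called genes stayed within 1.5 times under each of 18 alternatives that changed the tool, the library sizes, the filter or the libraries, and no named gene that was called under both settings changed sign. DESeq2 called 6479 genes, of which 5233 were among the 5271, limma-voom with sample weights 6274, a minimum count of 50 4730, no filter 4829, and 1 fit of all 8 groups 5154. Requiring a change of at least 1 on the log2 scale left 2311 genes, 1449 higher and 862 lower. Leaving out 1 library gave 3965 to 5641 calls, 2173 to 2883 higher and 1778 to 2758 lower. No scaling of library sizes moved the median of all genes by over 0.1.

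The replicate numbers were not used as a block, since libraries with the same number did not deviate together: the correlations of deviations in wild type were -0.01, 0.09, -0.02 and -0.12. With the replicate block 4760 genes were called, 2458 higher and 2302 lower, and not every library correlated best with its own number. In Cdkn1b -/- ovaries the correlations were 0.20, 0.14 and -0.13, and the replicate block gave 3711 calls there and 3 calls for the difference between genotypes.

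In the mutant, leaving out 1 library gave 2642 to 5129 calls, 1275 to 2634 higher and 1367 to 2495 lower. The lowest counts came without PND8 replicate 3 (2642 calls, 1275 higher and 1367 lower), and 1694 were higher without PND8 replicate 4. For the difference between genotypes, DESeq2 called 307 genes, 187 higher and 120 lower, and leaving out 1 library gave 0 to 13 calls, 0 to 12 higher and 0 to 1 lower. The 13 came without mutant 12wk replicate 3 (12 higher and 1 lower), 0 without mutant PND8 replicate 1, 1 without mutant PND8 replicate 3, and 1 lower without wild-type 12wk replicate 3. The cause of these changes was not tested beyond the loss of libraries.

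No filter on low counts left 20 of 65 oocyte genes lower, with 0 of 12 zona pellucida genes lower, and a minimum count of 50 left 6 T and NK cell genes to test, 4 of them higher. In the fit of all 8 groups, blood vessel genes were higher in 8 of 16, zona pellucida genes lower in 5 of 11 and matricellular genes lower in 4 of 13. With the replicate block 3 of 5 neutrophil genes were higher. Of 201 named genes that were called, these lost the call without at least 1 library, with the number of 8 such fits that kept it: Elavl4 0, Tnc 2, Bmp6 3, Acan 3, Ltbp3 3, Lox 3, Gpc6 3, Foxl2 3, Plod1 3, S100a9 3, Pdpn 3, Zp1 3, Lhx8 4, Hsd17b7 4, Cxcl10 4, Cdh5 4, Zbtb46 4, Snap25 4, C3 5, Lama2 5, Trac 5, Gli1 6, Col3a1 6, Dhcr7 6, S100a8 6, Tnfaip6 6, Top2a 7. The library measures (total counts, haemoglobin, mitochondrial and top 10 gene shares) passed in no fit. With 1 library left out, the exact test has too few libraries to reach a p under 0.05. With all 8 libraries, a single measure at the smallest possible p would not pass after adjustment. These fits therefore do not show that the measures are alike between the ages. Depth limits genes near the floor of 3 counts, above all T and NK cell genes at PND8.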

Other observations

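The members of 2 gene families moved in different ways. Plin1 and Sfrp4 belong to the lists, and the other members were chosen after their values were seen. Perilipins coat lipid droplets. Plin5, the form of tissues that burn fat, stood at 0.344, 0.391, 0.411 and 0.569 CPM at PND8 and 3.93, 63.2, 1.86 and 27.9 CPM at 12wk (log2 fold change 5.80 ± 1.15, edgeR adjusted p = 0.0059), and like Plin4 it was highest in 12wk replicate 2 and lowest in replicate 3. Plin1, Plin2 and Plin3 did not pass, at 0.27 ± 0.28, -0.21 ± 0.14 and -0.12 ± 0.11, with Plin2 and Plin3 at PND8 levels of 105–133 and 97.0–115 CPM. Secreted frizzled-related proteins bind Wnt ligands outside cells. Sfrp1 fell from 179–329.7 to 34.2–78.8 CPM (log2 fold change -1.99 ± 0.28, edgeR adjusted p = 0.0013), while Sfrp2 rose from 1.503–2.03 to 4.14–45.8 CPM (log2 fold change 3.85 ± 0.71, edgeR adjusted p = 0.0042). Sfrp4 also rose.

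The next 4 genes, chosen after their values were seen, encode chemokines and were called higher at 12wk. Ccl5, made by T and NK cells, stood at 0.0939, 0, 0 and 0.0989 CPM at PND8 and 2.21, 4.02, 4.77 and 2.54 CPM at 12wk (log2 fold change 6.10 ± 0.75, edgeR adjusted p = 0.00066). Ccl2, which attracts monocytes through Ccr2, rose from 0.0483–0.219 to 0.420–2.05 CPM (log2 fold change 3.20 ± 0.69, edgeR adjusted p = 0.0081). Cxcl10, an interferon-induced chemokine, stood at 1.97, 24.1, 2.04 and 1.72 CPM at 12wk against 0.652–1.44 at PND8 (log2 fold change 3.08 ± 0.96, edgeR adjusted p = 0.039), with replicate 2 far above the rest as in the interferon list, and Cxcl9 at 0.526, 2.83, 0.300 and 0.490 CPM against 0–0.0742 (log2 fold change 4.61 ± 1.00, edgeR adjusted p = 0.0086). Ccl21a, a T cell chemokine of the lymphatic list, did not pass, at 10.7–29.4 and 4.47–36.7 CPM (log2 fold change 0.03 ± 0.56, edgeR adjusted p = 0.98).

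Immediate-early genes split the PND8 libraries. Egr1 stood at 758, 527, 100.3 and 55.6 CPM at PND8 and 238, 132, 106 and 80.1 CPM at 12wk (log2 fold change -1.37 ± 0.76, edgeR adjusted p = 0.21), and Ccn1 at 365, 132, 21.8 and 28.3 and 58.4, 43.0, 17.2 and 24.3 CPM (log2 fold change -1.94 ± 0.86, edgeR adjusted p = 0.12). Both were high in PND8 replicates 1 and 2, the same libraries in which Fos was high, and neither passed. The PND8 libraries rich in oocyte transcripts and haemoglobin were replicates 1 and 4, so the libraries of 1 age did not line up in the same way for each measure.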
